A study of Mus musculus with 9 samples.

Results

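The liver handles alcohols, aldehydes, ketones and esters with families of related enzymes, and 57 of the 28956 genes in the count table belong to those described here. They are the genes whose symbols place them among the aldehyde dehydrogenases (Aldh, 17 genes), alcohol dehydrogenases (Adh, 5), family 1 aldo-keto reductases (Akr1, 14), carboxylesterases (Ces, 15), 3-beta-hydroxysteroid dehydrogenases (Hsd3b, 5) and 11-beta-hydroxysteroid dehydrogenases (Hsd11b, 1), with at least 10 reads in at least 3 libraries. Akr1d1 and symbols ending in -ps were left aside, while Adh6-ps1, a transcribed pseudogene in RefSeq, met the rule as written. Of 67 genes with such symbols, 10 failed the count minimum. Just above it lay Akr1c21 with 1 to 14 reads per library, Akr1b7 with 0 to 28 and Ces1a with 5 to 18. Just below it lay Aldh1a2, Aldh3b3 and Ces1h, each with at most 8 reads in any library. The others below it were Adh6a, Adh6b, Aldh3a1, Aldh3b2, Ces2b, Ces5a and Hsd11b2. The rule uses symbols and counts, though the families were picked with earlier results of these data known. All 57 genes entered the test.

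The 9 libraries came from livers of C57BL6J mice aged 8 weeks, all of which had received acetaminophen (APAP) intraperitoneally at 300 mg/kg. In the APAP_MSC group, 500000 MSCs were injected intravenously 90 min after APAP, in the APAP_HDF group the same number of HDFs, and in the APAP group no cells. The labels do not spell out these abbreviations; MSC is the common short form of mesenchymal stromal cell and HDF of human dermal fibroblast. Each group had 3 libraries at 24 h, and no untreated liver is analysed here, so no value here tells how far APAP itself moved a transcript. Hepatocytes are given as the cell type, although the RNA was extracted from liver pieces. Whether the 3 libraries of a group represent 3 mice is not stated, so p-values measure the spread between these libraries, which may be technical.

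Aldehyde dehydrogenases oxidise aldehydes to acids, alcohol dehydrogenases interconvert alcohols and aldehydes, and aldo-keto reductases reduce aldehydes and ketones, including steroids. Carboxylesterases cut esters in drugs and in stored fat, and the steroid dehydrogenases convert inactive and active hormones into each other. Most are abundant in hepatocytes, many differ between the central and portal parts of the liver lobule, and APAP at high dose kills hepatocytes around the central vein.

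The transcripts of these enzymes were mostly higher in APAP_MSC than in APAP, and none passed the test in APAP_HDF against APAP. In APAP_MSC against APAP, 16 of the 57 members rose and 2 fell in edgeR's quasi-likelihood test at an adjusted p under 0.05, which is 31.6% of the members beside 6.38% of all 17582 genes tested. By direction, 2.83% of all genes rose and 3.54% fell. The members' median log2 fold change was 0.53, against -0.01 over all genes, and 48 of 57 members were above 0, where 48.9% of all genes were. All 3 APAP_MSC libraries lay above all 3 APAP libraries for 33 members and below them for 4, together 64.9% of the members, where 28.5% of all genes had groups without overlap (13.7% higher and 14.7% lower). DESeq2 called 25 members higher and 2 lower, with 11.7% of all genes called. Those it called higher and edgeR did not were Adh4, Adh6-ps1, Akr1c6, Aldh1a1, Aldh2, Ces1b, Ces1c, Ces1d and Ces2g. The increases called by edgeR were spread over the aldehyde dehydrogenases (5 of 17), alcohol dehydrogenases (2 of 5), carboxylesterases (6 of 15) and 3-beta-hydroxysteroid dehydrogenases (3 of 5). In edgeR none of the 14 aldo-keto reductases rose and 1 fell.

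**Figure D1:**
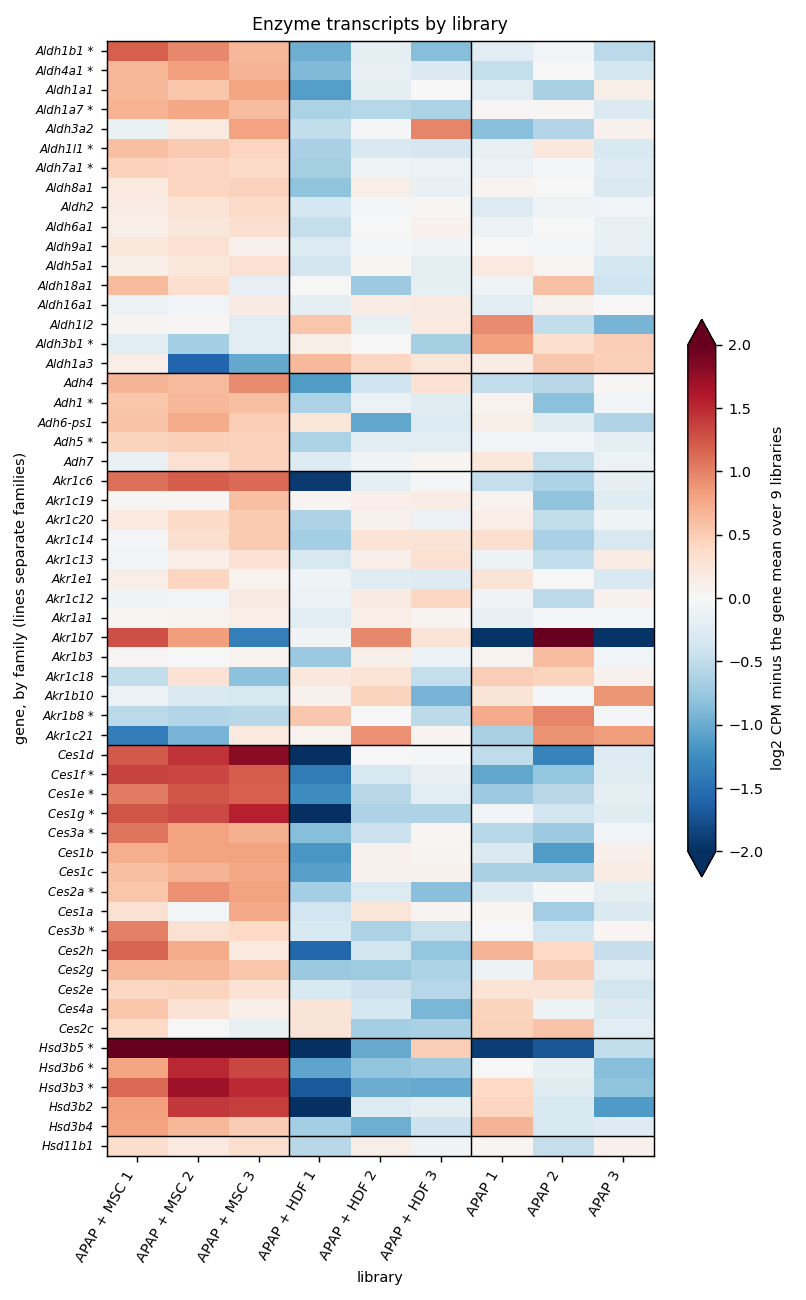
Each row is 1 of the 57 genes, grouped by family, and each column 1 library; colour gives log2 CPM (read counts scaled by library size) minus the gene's mean over the 9 libraries, cut at -2 and 2, and asterisks mark the 18 genes past the test in APAP_MSC against APAP. Most rows are red in the 3 APAP_MSC libraries, and library 1 of APAP_HDF holds the lowest value of 32 of the 57 genes. The same count over all genes was not made.

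The plot of all members by library shows the 3 APAP_MSC libraries alike and the others less so. The highest of the 9 values lay in APAP_MSC for 42 members, divided as 13, 14 and 15 among its libraries. Library 1 of APAP_HDF held the lowest value for 32 members, and its median deviation from the gene means was -0.62 on the log2 scale, against -0.12 and -0.14 in the other APAP_HDF libraries. Within groups, log2 CPM had a median SD over the members of 0.152 in APAP_MSC, 0.385 in APAP_HDF and 0.347 in APAP. These counts, deviations and SDs were not computed over all genes. Whether they are particular to these enzymes or common to the libraries was therefore not tested. Depth was similar, with total counts of 53267231 to 63175573 per library.

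In APAP_MSC against APAP, leaving out single libraries moved the number of calls more than the other settings tried did. The count of 18 members became 2 without APAP_MSC library 2, 7 without library 1 and 8 without library 3 of that group, and 8, 11 and 12 without APAP libraries 1, 2 and 3. It became 29 without APAP_HDF library 1, which belongs to neither group compared but enters the shared estimate of spread. Calls over all genes moved too: against 1121 with all 9 libraries, there were 97 without APAP_MSC library 2, 258 without library 1, 380 without library 3 of that group, and leaving out APAP_HDF library 1 gave 1753. Among the members, Aldh1a7 and Ces1e passed in all 9 such fits. For the other 16 called, the highest adjusted p in any of these fits was 0.176. The members' median log2 fold change stayed between 0.48 and 0.59.

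**Figure D2:**
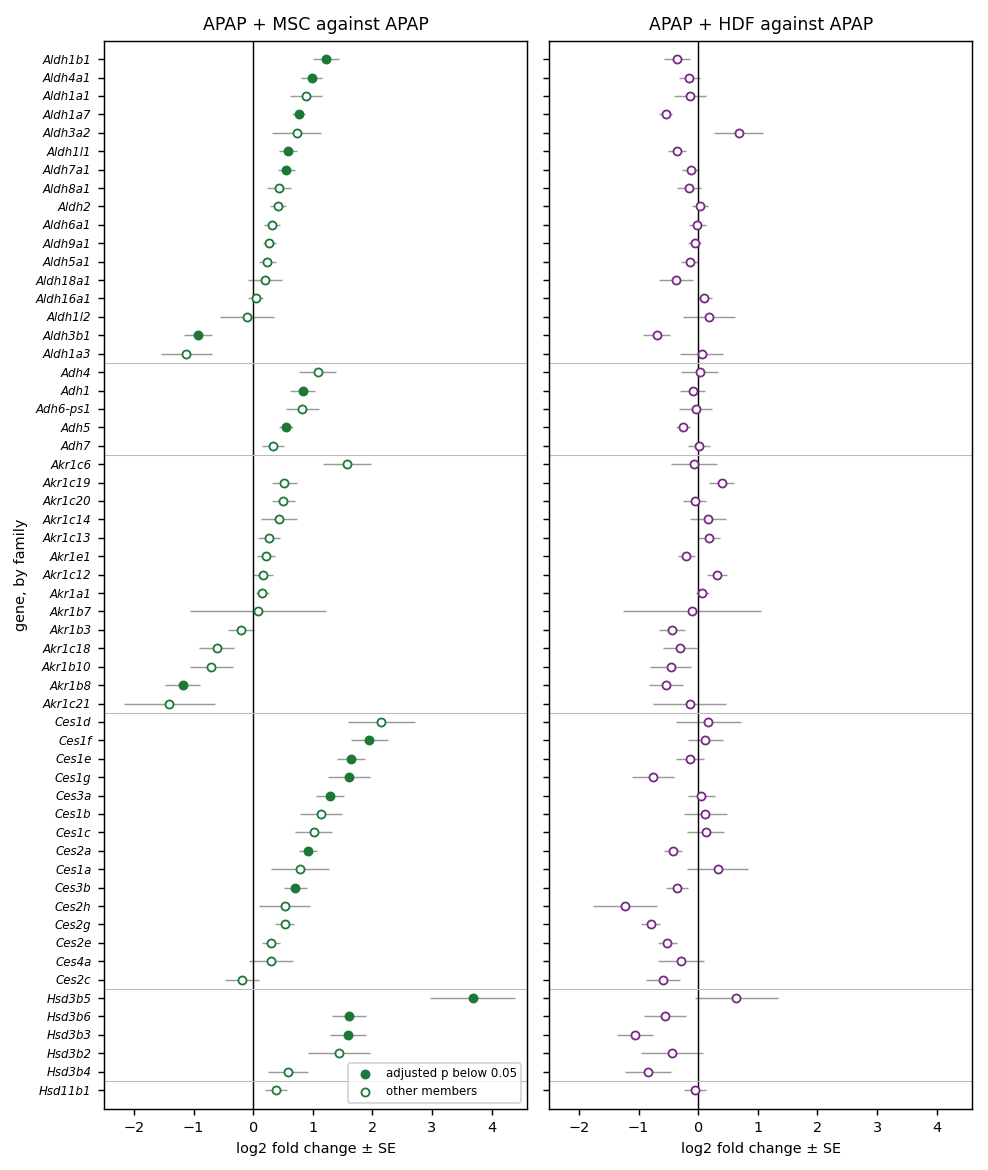
Log2 fold changes with SE for the 57 genes, by family, in APAP_MSC against APAP (left) and APAP_HDF against APAP (right); filled points have an adjusted p under 0.05. On the left 48 points lie above 0 and 18 are filled; on the right 38 lie below 0 and none is filled.

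Hepatocyte markers checked the tissue: the summed level of 9 such genes was 106700 to 119000 CPM in APAP_MSC, 101800 to 129500 CPM in APAP_HDF and 103100 to 128500 CPM in APAP, with none at 0. Of the 9, 1 (Cebpa) rose in APAP_MSC against APAP. Several lists of markers of other cells held genes that fell in APAP_MSC against APAP, where most of the enzymes were higher. Over all genes, 3.54% fell and 2.83% rose in that comparison. Summed levels of 9 monocyte and macrophage markers were 62.0 to 85.6 CPM in APAP_MSC, 95.8 to 129 CPM in APAP_HDF and 127 to 182 CPM in APAP, and 4 of the 9 fell in APAP_MSC against APAP. Neutrophil markers, with 4 of 6 lower, summed to 2.87 to 4.17 CPM in APAP_MSC, 3.37 to 11.0 CPM in APAP_HDF and 9.54 to 12.7 CPM in APAP, and Ly6g had no read in APAP_HDF. Sinusoidal endothelial markers, 3 of 8 lower, summed to 133 to 151 CPM in APAP_MSC, 180.4 to 254 CPM in APAP_HDF and 186 to 283 CPM in APAP. Stellate cell markers, 3 of 8 lower, summed to 269.6 to 299.8 CPM in APAP_MSC, 221 to 316 CPM in APAP_HDF and 342 to 409 CPM in APAP. Kupffer cell markers, 1 of 6 lower, summed to 96.8 to 166 CPM in APAP_MSC, 68.2 to 146 CPM in APAP_HDF and 117 to 279 CPM in APAP. Of the remaining lists, 1 of 5 erythroid genes rose, and no cholangiocyte (6), T and NK cell (3) or B cell (3) gene passed.

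Markers of position in the lobule were read in the same way. The 10 markers of pericentral hepatocytes, the cells around the central vein, summed to 2383 to 3611 CPM in APAP_MSC, 504 to 1295 CPM in APAP_HDF and 643 to 1135 CPM in APAP. Of these 10 markers 1 rose in APAP_MSC against APAP, namely Rgn, and none was at 0. Most of the sums came from Cyp2c29, Cyp2e1, Cyp1a2 and Rgn. Their means were 1071, 984, 494 and 387 CPM in APAP_MSC and 120, 617, 77.1 and 43.7 CPM in APAP. Glul, Oat, Axin2 and Tbx3 had log2 fold changes of 0.07, 0.27, 0.24 and 0.18, none of which passed. Lgr5 (0.55) and Slc1a2 (0.67) did not pass either, with means of 0.301 and 0.359 CPM in APAP_MSC. Periportal markers summed to 8927 to 9657 CPM in APAP_MSC, 5707 to 9076 CPM in APAP_HDF and 7078 to 10870 CPM in APAP, and 2 of 10, Cyp2f2 and Ass1, rose. Others of this list went the other way without passing. Pck1 had 438 to 1003 CPM in APAP_MSC and 1025 to 2800 CPM in APAP (log2 fold change -1.30 ± 0.60). Sds (-0.43) and Arg1 (-0.09) were also below 0, and the remaining periportal markers were above it. The part of these markers in the enzymes' differences was not tested. In whole liver, fewer cells of a type and less RNA per cell cannot be told apart.

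Among the aldehyde dehydrogenases, 5 of 17 rose and 1 fell in APAP_MSC against APAP, with a family median log2 fold change of 0.41. Those that rose act on acetaldehyde and other aldehydes (Aldh1a7, Aldh1b1), in folate metabolism (Aldh1l1) and in the breakdown of proline (Aldh4a1) and lysine (Aldh7a1).

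Aldh1a7, a rodent gene next to the retinaldehyde dehydrogenase Aldh1a1, had 289.8, 306 and 274 CPM in APAP_MSC, 115, 121 and 115 CPM in APAP_HDF and 183, 183 and 147 CPM in APAP. The 3 groups did not overlap, and APAP_HDF was the lowest. The rise in APAP_MSC against APAP was 1.70-fold (log2 fold change 0.76 ± 0.11, adjusted p = 0.00565) and had the smallest adjusted p of the members. Aldh1a1 itself had 896, 831 and 974 CPM in APAP_MSC, 263, 495 and 569 CPM in APAP_HDF and 486, 358 and 613 CPM in APAP. Its APAP_MSC libraries lay above all others, yet it missed the threshold against APAP (log2 fold change 0.89 ± 0.27, adjusted p = 0.079).

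Aldh1b1, a mitochondrial enzyme that oxidises acetaldehyde and retinaldehyde, had 96.3, 82.5 and 66.6 CPM in APAP_MSC, 21.5, 37.4 and 23.4 CPM in APAP_HDF and 35.9, 40.7 and 29.2 CPM in APAP. Its lowest APAP_MSC library lay well above the highest library of the other groups, and the rise over APAP was 2.32-fold (log2 fold change 1.21 ± 0.22, adjusted p = 0.0172). Aldh4a1, which completes the oxidation of proline to glutamate in mitochondria, had 147, 165 and 150.0 CPM in APAP_MSC, 50.5, 83.3 and 76.0 CPM in APAP_HDF and 67.2, 92.6 and 73.3 CPM in APAP. APAP_MSC again stood clear of both other groups (log2 fold change 0.99 ± 0.18, adjusted p = 0.0147).

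Aldh1l1, the cytosolic enzyme that releases carbon dioxide from formyl-tetrahydrofolate, had 841, 798 and 751 CPM in APAP_MSC, 356, 451 and 439.6 CPM in APAP_HDF and 503, 642 and 449 CPM in APAP. The difference from APAP was 0.58 ± 0.15 on the log2 scale (adjusted p = 0.0406), with no overlap. Aldh7a1, which oxidises the semialdehyde of lysine breakdown, had 351, 345 and 332 CPM in APAP_MSC, 161, 242 and 237 CPM in APAP_HDF and 235, 250.3 and 214 CPM in APAP. APAP_MSC lay above all 6 other libraries (log2 fold change 0.56 ± 0.15, adjusted p = 0.0454).

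Aldh2, the mitochondrial enzyme that clears acetaldehyde made from ethanol and the family's most counted member, had 1323, 1450.1 and 1560.0 CPM in APAP_MSC, 935, 1167 and 1219 CPM in APAP_HDF and 989, 1127 and 1150.1 CPM in APAP. The APAP_MSC libraries were the 3 highest, but the difference from APAP did not pass the test (log2 fold change 0.41 ± 0.13, adjusted p = 0.0933). Aldh3a2, which oxidises fatty aldehydes, had 61.9, 77.7 and 118 CPM in APAP_MSC, 48.4, 66.5 and 134 CPM in APAP_HDF and 38.0, 45.4 and 72.2 CPM in APAP. Its libraries overlapped between all groups.

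Aldh3b1, a membrane-associated enzyme that acts on aldehydes from lipid peroxidation, fell. It had 4.41, 3.23 and 4.44 CPM in APAP_MSC, 5.63, 5.22 and 3.24 CPM in APAP_HDF and 9.20, 6.51 and 7.24 CPM in APAP. All APAP libraries lay above the other 6, and the change in APAP_MSC against APAP was -0.92 ± 0.23 on the log2 scale (adjusted p = 0.038). Low-level Aldh1a3, a retinaldehyde dehydrogenase with 0.132 to 0.517 CPM in APAP_MSC, 0.561 to 0.755 CPM in APAP_HDF and 0.523 to 0.691 CPM in APAP, had a log2 fold change of -1.12 ± 0.43 against APAP that did not pass (adjusted p = 0.142).

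Of these calls, that of Aldh1a7 held whichever library was left out. That of Aldh4a1 was lost in 1 of 9 fits, without APAP_MSC library 2 (adjusted p = 0.0751), and that of Aldh1b1 in 3, without APAP library 1 or APAP_MSC libraries 1 and 2 (up to 0.0751). The calls of Aldh1l1, Aldh7a1 and Aldh3b1 were lost in 6, 7 and 7 fits, including those without any 1 of the APAP_MSC libraries, with adjusted p up to 0.142, 0.155 and 0.176. In limma-voom, Aldh7a1 had an adjusted p of 0.0555.

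The promoters of the neighbours Aldh1a7 and Aldh1a1 are shown because these genes, whose APAP_MSC libraries lay above all others, share much of their start region at 1 of the 2 annotated starts of Aldh1a1. Both windows run from 250 bases before to 50 bases after an annotated start, 5′ to 3′ on the gene's strand, from RefSeq on GRCm38.p6, a build older than the one named for the counts. That of Aldh1a7 is chr19:20727507-20727806 on the minus strand and that of Aldh1a1, its second annotated start, chr19:20601718-20602017 on the plus strand. Capitals mark the bases that differ from the other promoter or align to nothing in it, 82 in each.
Aldh1a7: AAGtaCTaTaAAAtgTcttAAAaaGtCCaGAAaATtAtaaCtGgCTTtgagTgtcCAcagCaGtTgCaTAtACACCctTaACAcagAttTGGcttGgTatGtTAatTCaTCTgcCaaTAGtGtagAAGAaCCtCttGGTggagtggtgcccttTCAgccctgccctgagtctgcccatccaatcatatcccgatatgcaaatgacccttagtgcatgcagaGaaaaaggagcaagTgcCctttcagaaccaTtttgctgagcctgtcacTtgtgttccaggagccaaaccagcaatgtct
Aldh1a1: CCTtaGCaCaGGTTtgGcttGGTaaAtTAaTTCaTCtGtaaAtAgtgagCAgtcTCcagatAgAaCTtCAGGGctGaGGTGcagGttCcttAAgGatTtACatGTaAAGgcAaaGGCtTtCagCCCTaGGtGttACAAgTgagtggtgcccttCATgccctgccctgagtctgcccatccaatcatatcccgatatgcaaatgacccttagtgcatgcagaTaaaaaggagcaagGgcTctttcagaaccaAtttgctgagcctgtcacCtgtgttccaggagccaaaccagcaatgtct
Of 300 bases, 218 (72.7%) were identical, and most capitals lie in the upstream part of the window. The first annotated start of Aldh1a1 gave 56.3% identity with Aldh1a7. Promoters of members from different subfamilies were at most 59.0% identical, with a median of 50.7% over 1292 pairs.

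All 5 alcohol dehydrogenase genes, which lie close together on chromosome 3, had a log2 fold change above 0 in APAP_MSC against APAP, and 2 of them rose. Adh1, the class I enzyme that oxidises ethanol and retinol and the family's most counted gene, had 2474, 2675 and 2542 CPM in APAP_MSC, 1080.0, 1544 and 1425 CPM in APAP_HDF and 1767, 948 and 1613 CPM in APAP. APAP_MSC stood above both other groups, which overlapped, and the rise over APAP was 1.78-fold (log2 fold change 0.83 ± 0.21, adjusted p = 0.0431). Adh5, the class III enzyme that handles glutathione-bound formaldehyde, had 307, 314 and 312 CPM in APAP_MSC, 146, 194 and 195 CPM in APAP_HDF and 218, 219 and 199 CPM in APAP. The APAP_MSC libraries were nearly equal and lay above all others (log2 fold change 0.55 ± 0.12, adjusted p = 0.0244).

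Adh4, the class II enzyme, had 146, 141 and 174 CPM in APAP_MSC, 41.6, 68.9 and 111 CPM in APAP_HDF and 64.4, 61.6 and 91.7 CPM in APAP. Its APAP_MSC libraries were the 3 highest, but the test was not passed (log2 fold change 1.08 ± 0.31, adjusted p = 0.0748). Adh6-ps1 had 15.6, 17.5 and 14.8 CPM in APAP_MSC, 12.4, 5.10 and 8.67 CPM in APAP_HDF and 11.3, 8.83 and 6.94 CPM in APAP, also without overlap and short of the threshold (log2 fold change 0.82 ± 0.28, adjusted p = 0.107). Adh7, the class IV retinol dehydrogenase, had 19.0, 26.0 and 29.0 CPM in APAP_MSC, 17.6, 19.96 and 21.8 CPM in APAP_HDF and 24.3, 15.1 and 19.3 CPM in APAP, and its groups overlapped.

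The call of Adh5 was lost in 5 of 9 fits, without APAP libraries 1 or 3 or any 1 of the APAP_MSC libraries, with adjusted p up to 0.105. That of Adh1 was lost in 6 fits, with adjusted p up to 0.159, and also with no filter on low counts (0.105).

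**Figure D3:**
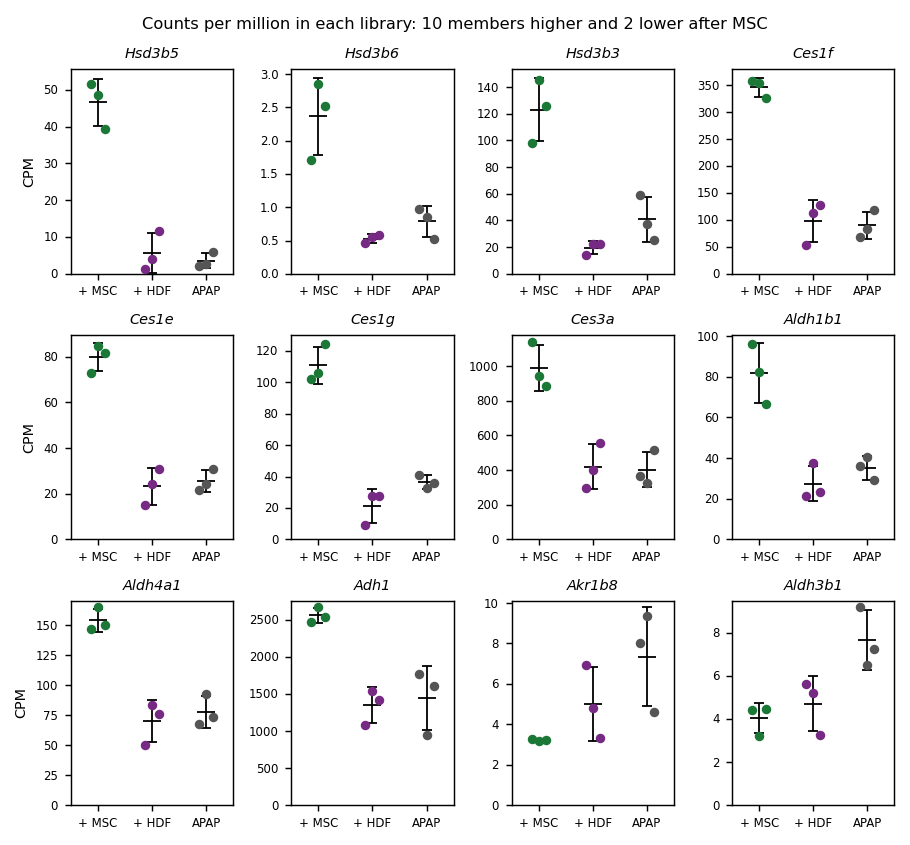
CPM in each library for 12 of the 18 genes past the test in APAP_MSC against APAP, with mean and SD of the 3 libraries of each group in the order APAP_MSC, APAP_HDF and APAP. In the 10 genes that rose all 3 APAP_MSC libraries lie above the other 6, while Akr1b8 and Aldh3b1 are lower in APAP_MSC than in APAP.

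The aldo-keto reductases had the lowest family median, a log2 fold change of 0.16 in APAP_MSC against APAP; in edgeR none of 14 rose and 1 fell. At an unadjusted p under 0.05, 3 were higher, where 10.2% of all genes were. Akr1b8, an aldose reductase-like enzyme that reduces aldehydes and retinaldehyde, had 3.27, 3.15 and 3.22 CPM in APAP_MSC, 6.94, 4.81 and 3.30 CPM in APAP_HDF and 8.03, 9.37 and 4.62 CPM in APAP. Its APAP_MSC libraries were nearly equal and were the 3 lowest of the 9, and the change against APAP was -1.18 ± 0.30 on the log2 scale (adjusted p = 0.0406). That call was lost in 6 of 9 fits, with adjusted p up to 0.161, and also with no filter on low counts (0.0525) and in limma-voom (0.0766). The related Akr1b10 had 0.793 to 0.923 CPM in APAP_MSC, 0.507 to 1.38 CPM in APAP_HDF and 0.989 to 1.87 CPM in APAP, and did not pass.

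Akr1c6, the liver 17-beta-hydroxysteroid dehydrogenase that acts on estradiol and testosterone in mice and the most counted of the family, had 814, 883 and 834 CPM in APAP_MSC, 101, 338 and 370.4 CPM in APAP_HDF and 272, 245 and 332 CPM in APAP. The APAP_MSC libraries were the 3 highest by far, and library 1 of APAP_HDF was the lowest. Against APAP, the log2 fold change of 1.57 ± 0.40 missed the threshold narrowly (adjusted p = 0.0523); without APAP_HDF library 1 the adjusted p was 0.000137, and in DESeq2 and limma-voom it was 0.000189 and 0.0482. Among the 9 aldo-keto reductases on chromosome 13, no other had a log2 fold change above 0.53 in this comparison.

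Akr1a1, the aldehyde reductase that makes gulonate for vitamin C synthesis in mice, had 334, 340.1 and 353 CPM in APAP_MSC, 278, 354 and 337 CPM in APAP_HDF and 291, 319.6 and 313 CPM in APAP. APAP_MSC lay above APAP without overlap, but the 1.11-fold difference did not pass (log2 fold change 0.15 ± 0.11, adjusted p = 0.467). Akr1b7, an aldose reductase-like enzyme, was near the limit of detection with 0.295, 0.208 and 0.0176 CPM in APAP_MSC, 0.0944, 0.228 and 0.127 CPM in APAP_HDF and 0, 0.523 and 0 CPM in APAP. A count of 0 in these libraries allows up to 3 reads, or 0.0541 CPM in APAP library 1 and 0.0453 CPM in APAP library 3, for counting error only. Akr1c12 and Akr1c13, whose promoters were 94.7% identical, had log2 fold changes of 0.16 and 0.26.

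**Figure D4:**
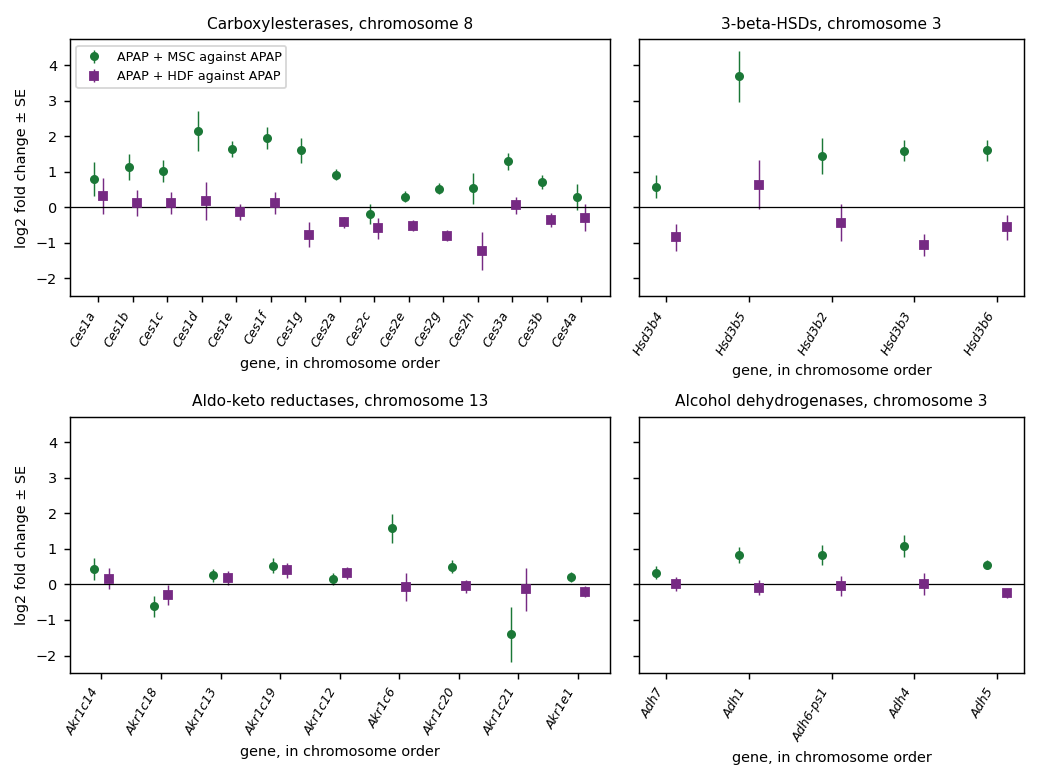
Log2 fold changes with SE in chromosome order for the carboxylesterases, the aldo-keto reductases of chromosome 13, the 3-beta-hydroxysteroid dehydrogenases and the alcohol dehydrogenases, with APAP_MSC against APAP as circles and APAP_HDF against APAP as squares. Circles lie above 0 for 14 of 15 carboxylesterases, and Akr1c6 stands above the other 8 genes of its row.

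The carboxylesterases form a row of 15 members on chromosome 8, and 6 of them rose in APAP_MSC against APAP: Ces1e, Ces1f, Ces1g, Ces2a, Ces3a and Ces3b. The family's median log2 fold change was 0.92 and 14 of 15 were above 0, as the plot along the gene rows shows. These enzymes sit mainly in the endoplasmic reticulum, where Ces1d, Ces1g and Ces3a are known for hydrolysing triacylglycerol and other lipid esters.

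Ces1f had 358, 354 and 326 CPM in APAP_MSC, 53.02, 112 and 127 CPM in APAP_HDF and 68.3, 82.2 and 118 CPM in APAP. All APAP_MSC libraries lay far above the other 6, and the rise over APAP was 3.86-fold (log2 fold change 1.95 ± 0.31, adjusted p = 0.0142). Ces1e, which holds beta-glucuronidase in the endoplasmic reticulum, had 73.0, 84.8 and 81.8 CPM in APAP_MSC, 14.9, 24.1 and 30.8 CPM in APAP_HDF and 21.5, 24.2 and 31.0 CPM in APAP. APAP_MSC stood apart and the other groups overlapped (log2 fold change 1.64 ± 0.23, adjusted p = 0.00708).

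Ces1g, an esterase known for its part in liver fat and cholesterol handling, had 102, 106 and 124 CPM in APAP_MSC, 9.06, 27.7 and 27.6 CPM in APAP_HDF and 40.9, 32.5 and 35.8 CPM in APAP. The 3 groups did not overlap, and library 1 of APAP_HDF was the lowest. The rise over APAP was 3.04-fold (log2 fold change 1.60 ± 0.35, adjusted p = 0.035). Ces3a, a hydrolase of stored triacylglycerol, had 1137, 941 and 884 CPM in APAP_MSC, 299, 399 and 556 CPM in APAP_HDF and 366, 326 and 517 CPM in APAP, with all APAP_MSC libraries above the others (log2 fold change 1.29 ± 0.23, adjusted p = 0.0161).

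Ces2a, a diacylglycerol and drug ester hydrolase, had 155, 200.1 and 186 CPM in APAP_MSC, 66.0, 87.7 and 59.7 CPM in APAP_HDF and 88.8, 105 and 93.1 CPM in APAP. The 3 groups followed each other without overlap, APAP_MSC highest and APAP_HDF lowest (log2 fold change 0.92 ± 0.15, adjusted p = 0.0104). Ces3b, the neighbour of Ces3a, had 186, 114 and 122 CPM in APAP_MSC, 74.4, 59.5 and 67.7 CPM in APAP_HDF and 93.0, 70.6 and 94.4 CPM in APAP. Its APAP_MSC library 1 was the highest and all 3 lay above APAP (log2 fold change 0.71 ± 0.19, adjusted p = 0.0474).

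Other members lay above APAP without passing. Ces1d, a major triacylglycerol hydrolase of mouse liver, had 301, 351 and 447 CPM in APAP_MSC, 25.2, 129 and 125 CPM in APAP_HDF and 90.0, 50.9 and 107 CPM in APAP. APAP_MSC lay above all other libraries, with a 4.43-fold difference from APAP that did not pass (log2 fold change 2.15 ± 0.56, adjusted p = 0.0597). Ces1d did pass in DESeq2 (adjusted p = 0.00751) and limma-voom (0.0461). Of the 9 fits without 1 library it passed in 1, that without APAP_HDF library 1 (0.00353). Ces1c, the esterase secreted into plasma and the family's most counted gene, had 1788, 1908 and 2024 CPM in APAP_MSC, 559.7, 1259 and 1260.0 CPM in APAP_HDF and 757, 757 and 1312 CPM in APAP. Its libraries did not overlap either, and it did not pass (log2 fold change 1.02 ± 0.31, adjusted p = 0.084). Ces2g had 74.2, 74.1 and 68.3 CPM in APAP_MSC, 27.9, 28.4 and 30.1 CPM in APAP_HDF and 43.5, 66.5 and 40.4 CPM in APAP; the APAP_MSC libraries were the highest and the test against APAP was missed (log2 fold change 0.53 ± 0.16, adjusted p = 0.0723). Ces2e had 141, 144 and 129 CPM in APAP_MSC, 85.9, 78.1 and 70.8 CPM in APAP_HDF and 128, 127 and 81.9 CPM in APAP, with APAP_MSC above APAP without overlap and APAP_HDF lowest in the mean. Ces1b had 81.5 to 86.4 CPM in APAP_MSC, 22.0 to 52.2 CPM in APAP_HDF and 22.7 to 52.6 CPM in APAP, again with APAP_MSC above all other libraries and short of the threshold (adjusted p = 0.09996). The remaining esterases, Ces1a, Ces2c, Ces2h and Ces4a, had adjusted p-values of 0.367 or more against APAP.

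The call of Ces1e held in all 9 fits without 1 library. Those of Ces1f and Ces2a were each lost without APAP_MSC library 2 (adjusted p = 0.0591 and 0.062), and that of Ces3a without APAP library 1 or APAP_MSC libraries 1 and 2 (up to 0.0662). Ces1g lost its call in 6 fits (up to 0.105) and with no filter on low counts (0.101). Ces3b lost it in 8 fits (up to 0.135), with no filter on low counts (0.0605), in limma-voom (0.0568) and with only the 6 libraries compared (0.067).

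The promoters of Ces1c and Ces1b are shown because they were the second most alike among the members and their genes lie in the same row, with log2 fold changes in APAP_MSC against APAP of 1.02 ± 0.31 and 1.14 ± 0.36, neither of which passed. Both are on the minus strand in GRCm38.p6, that of Ces1c at chr8:93131234-93131533 and that of Ces1b at chr8:93079891-93080190. Capitals again mark the 42 bases in each that differ or have no partner.
Ces1c: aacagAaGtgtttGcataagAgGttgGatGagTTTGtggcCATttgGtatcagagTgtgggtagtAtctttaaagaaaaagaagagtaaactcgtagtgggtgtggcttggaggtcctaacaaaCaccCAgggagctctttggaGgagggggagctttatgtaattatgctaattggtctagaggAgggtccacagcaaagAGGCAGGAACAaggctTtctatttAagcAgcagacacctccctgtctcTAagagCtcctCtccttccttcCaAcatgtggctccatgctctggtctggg
Ces1b: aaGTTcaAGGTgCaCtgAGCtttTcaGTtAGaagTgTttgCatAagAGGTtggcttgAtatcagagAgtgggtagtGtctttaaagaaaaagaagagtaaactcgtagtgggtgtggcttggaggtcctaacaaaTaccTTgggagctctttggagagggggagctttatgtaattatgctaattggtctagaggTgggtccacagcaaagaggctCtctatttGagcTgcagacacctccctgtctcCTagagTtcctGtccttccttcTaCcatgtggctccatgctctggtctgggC
The windows were 86.0% identical, while the other annotated start of Ces1b gave 51.7% identity with Ces1c. The capitals of Ces1b lie mostly in its first 50 bases, and those of Ces1c in its first 50 bases and in the 50 bases before the start. The promoters of Ces2a and Ces2c were 68.0% identical, and these genes had log2 fold changes of 0.92 and -0.19.

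The 3-beta-hydroxysteroid dehydrogenases had the highest family median, a log2 fold change of 1.60 in APAP_MSC against APAP, and 3 of 5 rose. Hsd3b5, which in mouse liver reduces 3-ketosteroids and is known as a male-predominant gene, had 51.7, 48.6 and 39.5 CPM in APAP_MSC, 1.20, 4.13 and 11.8 CPM in APAP_HDF and 2.24, 2.54 and 5.96 CPM in APAP. Every APAP_MSC library lay far above the other 6. The rise over APAP was 12.8-fold (log2 fold change 3.68 ± 0.71, adjusted p = 0.0249), the highest fold change of the 57 members.

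Hsd3b3, a dehydrogenase and isomerase found in liver and kidney and the most counted of the family, had 98.3, 145 and 126 CPM in APAP_MSC, 14.0, 22.5 and 22.2 CPM in APAP_HDF and 59.0, 37.7 and 25.6 CPM in APAP. The groups did not overlap, with APAP_HDF at the bottom (log2 fold change 1.60 ± 0.30, adjusted p = 0.0213). Hsd3b6, known from adrenal gland and placenta and low here, had 1.72, 2.85 and 2.52 CPM in APAP_MSC, 0.456, 0.553 and 0.580 CPM in APAP_HDF and 0.974, 0.859 and 0.528 CPM in APAP. APAP_MSC was again clear of the rest (log2 fold change 1.60 ± 0.29, adjusted p = 0.0146).

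Hsd3b2 had 22.6, 34.2 and 33.6 CPM in APAP_MSC, 2.89, 10.5 and 11.2 CPM in APAP_HDF and 17.2, 10.4 and 5.81 CPM in APAP. Its APAP_MSC libraries were the 3 highest, and the difference from APAP did not pass (log2 fold change 1.44 ± 0.51, adjusted p = 0.142). Hsd3b4 had 0.978, 0.888 and 0.793 CPM in APAP_MSC, 0.330, 0.260 and 0.398 CPM in APAP_HDF and 0.902, 0.429 and 0.453 CPM in APAP. Here APAP library 1 reached into the APAP_MSC range, and APAP_HDF lay below both.

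The call of Hsd3b6 was lost in 1 of 9 fits, without APAP_MSC library 2 (adjusted p = 0.0779). That of Hsd3b3 was lost in 3, without APAP library 2 or APAP_MSC libraries 2 and 3 (up to 0.0928), and that of Hsd3b5 in 5, without APAP libraries 1 or 2 or any 1 of the APAP_MSC libraries (up to 0.0917). With no filter on low counts, Hsd3b3 and Hsd3b5 had adjusted p-values of 0.0653 and 0.072.

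The promoters of Hsd3b5 and Hsd3b3 are shown because Hsd3b5 had the highest fold change and Hsd3b3, its relative, holds a match to the motif of HNF4A, a hepatocyte factor. In GRCm38.p6 they are chr3:98645485-98645784 and chr3:98762361-98762660, both on the minus strand, and they were 65.7% identical. The letters searched were CAAAGTCCA on either strand. Capitals mark the match in Hsd3b3, which reads as the reverse complement and begins at base 4 counted from the start as 1, and the closest stretch of Hsd3b5, which begins at -44.
Hsd3b5: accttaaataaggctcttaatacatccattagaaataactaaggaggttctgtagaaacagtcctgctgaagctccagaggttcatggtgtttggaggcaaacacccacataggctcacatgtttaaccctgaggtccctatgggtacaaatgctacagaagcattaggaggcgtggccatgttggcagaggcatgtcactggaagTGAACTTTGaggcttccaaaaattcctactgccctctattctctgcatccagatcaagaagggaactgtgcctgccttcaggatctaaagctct
Hsd3b3: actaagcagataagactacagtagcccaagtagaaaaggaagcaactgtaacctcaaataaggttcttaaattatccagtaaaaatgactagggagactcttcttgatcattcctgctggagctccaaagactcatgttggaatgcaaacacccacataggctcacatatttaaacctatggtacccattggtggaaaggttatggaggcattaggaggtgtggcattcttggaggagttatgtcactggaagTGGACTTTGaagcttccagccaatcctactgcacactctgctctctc
Counted from the first capital of Hsd3b3, Hsd3b5 differs from it by the substitution G3A and so holds no match. Both annotated Hsd3b3 promoters held the letters, and no other of the 53 member promoters did. Of all 32841 promoters in the table, 0.475% held them.

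Hsd11b1, which restores active glucocorticoid from its inactive keto form, was the only 11-beta enzyme kept. It had 253, 227 and 249 CPM in APAP_MSC, 135, 216 and 189 CPM in APAP_HDF and 204, 143 and 212 CPM in APAP. The APAP_MSC libraries were the 3 highest, and the difference from APAP did not pass (log2 fold change 0.38 ± 0.18, adjusted p = 0.234).

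In APAP_HDF against APAP no member passed edgeR's test, and neither did any of the 17582 genes (0% called). The smallest adjusted p of a member was 0.44. At an unadjusted p under 0.05 there were 8 members, all lower in APAP_HDF: Aldh1a7, Aldh1l1, Aldh3b1, Ces2a, Ces2e, Ces2g, Ces2h and Hsd3b3. They make up 14.0% of the members, where 5.14% of all genes were lower and 8.78% differed either way at this p. The 3 APAP_HDF libraries lay below all 3 APAP libraries for 8 members and above them for none. That too is 14.0% of the members, beside 6.08% of all genes lower in this way, 5.66% higher and 11.7% in either direction.

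**Figure D5:**
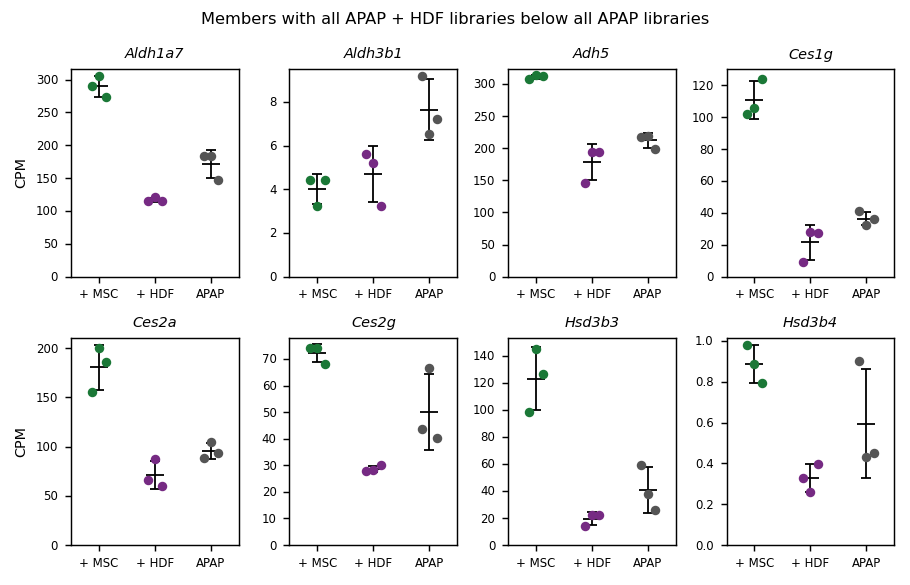
CPM in each library for the 8 members whose APAP_HDF libraries all lie below the APAP libraries, with mean and SD for each group. In 7 of the 8, all but Aldh3b1, APAP_MSC has the highest mean; none of the 8 passed the test in APAP_HDF against APAP.

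The plot of those 8 members shows how tight some of the low APAP_HDF values were. Ces2g spanned 27.9 to 30.1 CPM in APAP_HDF and 40.4 to 66.5 CPM in APAP, with a log2 fold change of -0.80 ± 0.16 (unadjusted p = 0.000375 in edgeR, adjusted p = 0.44). Aldh1a7 spanned 115 to 121 CPM in APAP_HDF and 147 to 183 CPM in APAP, at -0.54 ± 0.11 (unadjusted p = 0.000369 in edgeR, adjusted p = 0.44). Hsd3b3 spanned 14.0 to 22.5 CPM in APAP_HDF and 25.6 to 59.0 CPM in APAP, at -1.06 ± 0.30 (adjusted p = 0.502). DESeq2 called Ces2g (adjusted p = 0.0076), Aldh1a7 (0.00596) and Hsd3b3 (0.0452) lower, among 83 genes or 0.472% of all; limma-voom called none. Without APAP library 3, edgeR called Aldh1a7, Ces2e and Ces2g lower (adjusted p = 0.0439, 0.0394 and 0.0454) among 32 genes in all. Over the 57 members the median log2 fold change was -0.13, and 38 were below 0 and 19 above it, where 49% of all genes were above 0, but without APAP_HDF library 1 the median was 0.03 (all genes -0.02).

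Comparing the 2 cell treatments, 21 of 57 members rose in APAP_MSC against APAP_HDF and none fell, which is 36.8% of the members beside 8.89% of all genes (4.9% higher and 3.99% lower). At an unadjusted p under 0.05, 1 member was lower, where 13% of all genes were. DESeq2 called 32 members, all higher, with 14.4% of all genes called, and limma-voom 24, all higher, with 8.79% of all genes called. In the test of any difference between the 3 groups, 19 members passed, beside 7% of all genes. The median log2 fold change was 0.59. The libraries did not overlap for 38 members, 36 higher and 2 lower, or 66.7%, where 33.2% of all genes did not overlap (16.8% higher and 16.4% lower). This comparison shares its APAP_MSC libraries with the one above. The 21 include Akr1c6, Aldh1a1, Ces2e, Ces2g and Hsd3b4, which did not pass against APAP.

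The smallest adjusted p was that of Aldh1a7 (log2 fold change 1.31 ± 0.11, adjusted p = 0.000419). Hsd3b5 (3.05 ± 0.68, adjusted p = 0.0318) and Hsd3b3 (2.65 ± 0.32, adjusted p = 0.00284) had the highest log2 fold changes, followed by Ces1g (2.37 ± 0.36, adjusted p = 0.00777) and Hsd3b6 (2.16 ± 0.30, adjusted p = 0.00291). Ces2a and Ces2g differed by 1.34 ± 0.15 and 1.33 ± 0.16 (adjusted p = 0.00118 and 0.00166), and Ces2e by 0.82 ± 0.16 (adjusted p = 0.0111). In both Ces2g and Ces2e all APAP_MSC libraries lay above all APAP_HDF libraries. Akr1c6, Aldh1a1 and Hsd3b4 differed by 1.64 ± 0.40, 1.03 ± 0.27 and 1.43 ± 0.36 (adjusted p = 0.0381, 0.0438 and 0.0342).

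Of the 21 calls, 14 held in all 9 fits without 1 library. The other 7 were Adh1, Akr1c6, Aldh1a1, Aldh7a1, Ces2e, Hsd3b4 and Hsd3b5. Their highest adjusted p was 0.0986 for Adh1, 0.11 for Akr1c6, 0.111 for Aldh1a1, 0.076 for Aldh7a1, 0.0596 for Ces2e, 0.117 for Hsd3b4 and 0.112 for Hsd3b5. Leaving out any 1 of the APAP_MSC libraries ended the calls of Adh1, Akr1c6, Aldh1a1, Hsd3b4 and Hsd3b5. With no filter on low counts, Adh1 (0.0639), Akr1c6 (0.123), Aldh1a1 (0.141) and Hsd3b5 (0.0944) had adjusted p-values above the threshold, and Akr1c6 also with only the 6 libraries compared (0.0604).

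Genes with related roles outside the families were read from 9 lists, chosen with earlier results of these data known. Over all genes, 2.83% rose and 3.54% fell in APAP_MSC against APAP. Among 16 other esterases and hydrolases, 5 rose and none fell in APAP_MSC against APAP. Bphl, which activates ester prodrugs, had 65.9, 72.4 and 74.5 CPM in APAP_MSC, 26.0, 36.6 and 42.5 CPM in APAP_HDF and 37.7, 43.1 and 38.7 CPM in APAP (log2 fold change 0.83 ± 0.15, adjusted p = 0.0157). Aadac, which deacetylates drugs and lipids, had 178, 196 and 189 CPM in APAP_MSC, 85.4, 128 and 124 CPM in APAP_HDF and 115, 111 and 115 CPM in APAP (log2 fold change 0.73 ± 0.14, adjusted p = 0.0173). In both genes all APAP_MSC libraries lay above the other 6. Lipc, hepatic lipase, which acts on plasma lipoproteins, had 52.7, 58.7 and 63.9 CPM in APAP_MSC, 22.4, 29.4 and 32.5 CPM in APAP_HDF and 27.7, 21.3 and 37.5 CPM in APAP (log2 fold change 1.02 ± 0.20, adjusted p = 0.0184). The other genes that rose, named after their values were seen, were Pnpla3 and Ephx1.

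Of 16 other carbonyl reductases and oxidases 3 rose. Maob, which oxidises amines to aldehydes, had 133, 135 and 134 CPM in APAP_MSC, 76.8, 94.7 and 87.9 CPM in APAP_HDF and 99.5, 85.8 and 87.1 CPM in APAP (log2 fold change 0.56 ± 0.10, adjusted p = 0.0161). Adhfe1, which oxidises gamma-hydroxybutyrate, had 46.9, 56.1 and 57.9 CPM in APAP_MSC, 14.5, 23.4 and 19.7 CPM in APAP_HDF and 31.2, 32.4 and 23.9 CPM in APAP (log2 fold change 0.88 ± 0.17, adjusted p = 0.0184). In both, APAP_MSC did not overlap the other groups. Akr7a5, an aldehyde reductase of another aldo-keto family, had 133, 132 and 146 CPM in APAP_MSC, 92.4, 116 and 108 CPM in APAP_HDF and 92.4, 107 and 96.9 CPM in APAP (log2 fold change 0.47 ± 0.11, adjusted p = 0.0286).

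Of 19 retinoid genes 3 rose and 1 fell. Rdh5, a retinol dehydrogenase, had 17.7, 17.7 and 15.2 CPM in APAP_MSC, 10.6, 9.90 and 9.82 CPM in APAP_HDF and 9.54, 10.1 and 11.4 CPM in APAP (log2 fold change 0.70 ± 0.12, adjusted p = 0.0128). Bco2, which cleaves carotenoids off centre, had 13.8, 19.1 and 13.5 CPM in APAP_MSC, 7.76, 9.07 and 10.1 CPM in APAP_HDF and 11.0, 8.81 and 8.06 CPM in APAP (log2 fold change 0.74 ± 0.18, adjusted p = 0.0327), and Dhrs3, which reduces retinaldehyde, rose by 1.09 ± 0.26 (adjusted p = 0.0395). The gene that fell was Bco1, the enzyme that splits carotene to retinaldehyde, with 21.4, 18.7 and 15.0 CPM in APAP_MSC, 41.3, 27.8 and 28.1 CPM in APAP_HDF and 40.2, 28.4 and 27.6 CPM in APAP; it was named after its values were seen, and no gene of the list fell with no filter on low counts or in limma-voom.

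Of 13 other steroid enzymes 2 rose. Srd5a1, steroid 5-alpha-reductase, had 41.4, 38.7 and 31.5 CPM in APAP_MSC, 16.0, 19.6 and 17.5 CPM in APAP_HDF and 17.5, 20.4 and 19.6 CPM in APAP (log2 fold change 0.96 ± 0.13, adjusted p = 0.00455), and Hsd17b2, which inactivates estradiol and testosterone, had 157, 137 and 122 CPM in APAP_MSC, 76.0, 64.8 and 68.6 CPM in APAP_HDF and 79.1, 98.4 and 73.8 CPM in APAP (log2 fold change 0.73 ± 0.13, adjusted p = 0.0147). Both had APAP_MSC above all other libraries. Of 10 genes of glucocorticoid handling and response, Serpina6, the corticosteroid-binding globulin of plasma, rose with 20.1, 25.2 and 23.6 CPM in APAP_MSC, 0.299, 2.03 and 1.70 CPM in APAP_HDF and 2.07, 1.51 and 2.29 CPM in APAP (log2 fold change 3.54 ± 0.42, adjusted p = 0.0045), and Fkbp5, a glucocorticoid-induced chaperone, fell with 63.3, 52.2 and 74.9 CPM in APAP_MSC, 130.3, 123 and 178 CPM in APAP_HDF and 129, 120.3 and 133 CPM in APAP (log2 fold change -1.004 ± 0.16, adjusted p = 0.00915).

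Of 5 genes of ethanol and acetate handling, Cat, the peroxisomal catalase, had 1768, 1717 and 1780.2 CPM in APAP_MSC, 795, 1166 and 1282 CPM in APAP_HDF and 919.7, 1000.1 and 962 CPM in APAP (log2 fold change 0.87 ± 0.16, adjusted p = 0.0161), and Acss3, a mitochondrial acyl-CoA synthetase, rose by 1.30 ± 0.35 (adjusted p = 0.0492). Of 14 male-biased liver genes 3 rose: Nudt7 (log2 fold change 2.27 ± 0.24, adjusted p = 0.0034), Elovl3 (log2 fold change 4.36 ± 0.72, adjusted p = 0.0175) and Slco1a1 (log2 fold change 2.05 ± 0.44, adjusted p = 0.034). Of 9 tested female-biased genes 2 rose, Cyp3a16 (log2 fold change 2.31 ± 0.33, adjusted p = 0.0056) and Cyp3a44 (log2 fold change 1.37 ± 0.33, adjusted p = 0.0342). Of 19 regulators of these enzymes, Ghr, the growth hormone receptor (log2 fold change 0.93 ± 0.18, adjusted p = 0.0182), and Cebpa (log2 fold change 0.59 ± 0.15, adjusted p = 0.0438) rose, and Foxa2 did not pass (log2 fold change 0.57 ± 0.16, adjusted p = 0.0596).

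The 0 calls over all genes in APAP_HDF against APAP cover these lists. In APAP_MSC against APAP the calls of Srd5a1, Serpina6, Nudt7 and Cyp3a16 held whichever library was left out. Those of the other genes named with a fold change were lost in at least 1 such fit, with the highest adjusted p between 0.06 for Fkbp5 and 0.161 for Acss3, which was also above the threshold in limma-voom (0.0674), with no robust moderation (0.0524), with only the 6 libraries compared (0.0656) and in edgeR's earlier form of the fit (0.0559). With no filter on low counts Dhrs3 (0.107) and Slco1a1 (0.094) were above it, as was Cebpa in limma-voom (0.0509) and Cyp3a44 in edgeR's earlier form of the fit (0.0524).

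Sequence was also searched over the 53 promoters found for 47 of the 57 members. The letters TATAAA occurred in 8, TTGCNNAA for C/EBP in 11, TTCNNNGAA for STAT5 in 4, AGGTCA, shared by many nuclear receptors, in 10 and TGTTTAC for HNF3 in 6. The shares of all promoters with the same letters were 13.6%, 10.8%, 8.3%, 16.3% and 3.65% in that order, both strands counted. TGACNNNGC, the antioxidant response element, occurred in 3 of 53 beside 12.4% of all. Among the 15 promoters of members that rose in APAP_MSC against APAP, 4 held TATAAA, 2 held the C/EBP letters and 2 held AGGTCA. None of the 15 held the letters of STAT5, HNF3 or the antioxidant response element. All 6 promoters with the HNF3 letters were among the other 38, those of Akr1b10, Akr1b7, Akr1c12, Akr1c13, Akr1c21 and Hsd11b1. The promoters of Akr1c12 and Akr1c13 were 94.7% identical, so the 6 are not independent. At the shares over all promoters, 15 promoters are too few to tell absence of these letters from a low share. AGGTCA, read on the other strand, can overlap TGACNNNGC. A match describes the letters and is not a bound site.

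Closely related copies limit some of these values, since reads from shared stretches cannot be placed with certainty and strand use in counting was not stated. Over windows of 50 bases in the GENCODE M21 transcripts of GRCm38, 39 of the 57 members shared fewer than 5% of theirs with another gene. Hsd3b4 shared all of them with Gm10681, so its level is uncertain. Akr1c12 and Akr1c13 shared 28.6% and 24.2% with each other, Ces3b and Ces3a 26.2% and 25.6%, and Hsd3b2 had 25.1% in other genes. Aldh4a1 shared 30.0% with Gm21969 and Ces2c 32.7% with a pseudogene, Ces2d-ps. Hsd3b6, with 29 to 151 reads per library, had 15.6% in other genes and shared 13.2% with Hsd3b2, which had more reads in every library. The part of misplaced reads in the Hsd3b6 call was not tested. Hsd3b5 had 21.2% in other genes and Ces1e 2.97%. Aldh1a7 shared 7.49% with Aldh1a1, which had more reads in every library, and Ces2a shared 16.3% with Gm7208. Misplaced reads in the calls of Aldh1a7 and Ces2a were not tested for either.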

How the data were processed

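The 9 mouse liver libraries were made with an mRNA-seq kit. Raw read counts per gene symbol were deposited by the authors as whole numbers; the submitters' processing notes name HISAT2, Subread and DESeq2 and builds mm39 and GRCm39, and strand use is not given in the sources used here. The deposited table of scaled counts was not used. Column headers give the group only, so library numbers 1 to 3 name columns and pair nothing.

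Differences were computed from the counts with edgeR 4.0.16 in R 4.3.3: filterByExpr, TMM scaling, robust quasi-likelihood fit of group over all 9 libraries, 2-sided test, and Benjamini-Hochberg adjustment over 17582 genes at 0.05. CPM use TMM-scaled library sizes, and deviations use log2 CPM with a prior count of 2. The SE given with a log2 fold change is its absolute value divided by the square root of the test's F statistic. Total counts were 53267231 to 63175573 per library.

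The members and the 12 marker and 9 pathway lists were chosen with earlier results of these data known. Named are all members past the test in any comparison, the most counted member of each family, fixed readouts and up to 3 genes per pathway list by smallest p. One fixed readout is not analysed here. Promoters are RefSeq GRCm38.p6 and were aligned with Biopython 1.88. Alternatives were median-of-ratios factors, no filter, DESeq2 1.42.0, limma-voom (limma 3.58.1), no robust moderation, only the libraries compared and each library left out. The fit was also run on counts simulated from its own estimates of spread. These held no outlying library, so they cannot show how single libraries move the calls. Groups of 3 were too small for the check of outlying samples.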

Additional observations from a re-analysis of the deposited data

How the results depend on the processing

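The count of 18 members called in APAP_MSC against APAP ranged from 2 to 29 when 1 library was left out. For 0 members called in APAP_HDF against APAP the range was 0 to 3, for 21 in APAP_MSC against APAP_HDF 14 to 21, and for 19 in the test of any difference between groups 8 to 26. Over all genes, calls in APAP_MSC against APAP_HDF ranged from 361 to 1793 in these fits, against 1563 with all 9 libraries. Without APAP_MSC library 1, edgeR called 15 members higher and 1, Aldh1a3, lower (adjusted p = 0.0451) in that comparison. DESeq2 called 3 members in APAP_HDF against APAP, 32 in APAP_MSC against APAP_HDF and 30 in the test of any difference. No called value changed sign. Outside the fits that left out a library, 258 of 273 alternative values of called members passed the test, and 15 did not, namely calls of Adh1, Akr1b8, Akr1c6, Aldh1a1, Aldh7a1, Ces1g, Ces3b, Hsd3b3 and Hsd3b5; the cause was not tested. In all genes, APAP_MSC against APAP gave 1121 calls, against 2050 in DESeq2. The edgeR fit in its earlier (legacy) form was added after seeing the data and called 18, 0 and 21 members. No paired analysis was possible because the count columns carry no replicate numbers. Where a left-out library left 2 in a group, that group was assumed to vary like the others. Depth limits Akr1b7, Akr1c21 and Ces1a, which had at most 28 reads in any library.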
